A study of Mus musculus with 6 samples.

Results

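MYC drives cell growth as one partner of a small network of transcription factors that share the subunit MAX, and the 10 genes of that network described here are Myc, its paralogues Mycn and Mycl, Max itself, and the antagonists Mxd1, Mxd3, Mxd4, Mxi1, Mnt and Mga. They were chosen by name, as rows of the deposited expression table whose Ensembl identifier carries one of these symbols in GENCODE M21. All 10 were found among 21135 listed genes, and all 10 had the mean of at least 10 normalised reads needed for the test. RNA was sequenced in 6 libraries of DN3 thymocytes, immature T cells that lack CD4 and CD8 and are assembling their receptor beta chain, from C57BL/6 mice. In 3 libraries the genotype was NMe wild type, where NMe is a distant enhancer that Notch binds to drive Myc. In the other 3, both alleles of NMe carried mutated GATA sites 1 and 2, motifs of the kind that the thymocyte factor Gata3 binds, and these are called mutant below. The labels used here give no age, sorting gate or other allele, and do not say how many animals a library came from. The comparison asks how far Mycn and the balance of antagonists could offset the loss of Myc, at the level of RNA only, since protein was not measured.

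MYC proteins bind DNA as pairs with MAX, mostly at the E-box CACGTG, and activate genes of ribosome assembly, metabolism and cell growth. MXD proteins (MXD1, MXD3, MXD4 and MXI1), MNT and MGA pair with MAX too, bind the same E-box and repress, MXD and MNT through the SIN3 and histone deacetylase complex and MGA within a Polycomb complex. MYC and MYCN can replace each other in many settings, and early thymocytes depend on MYC to expand after they commit to the T lineage. MXD1 and MXD4 are known from cells that leave the cell cycle, whereas MXD3 is known from cycling cells in S phase.

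Because both arms of the network read the E-box, the promoters of the network genes were searched for it. RefSeq promoter windows (250 bases before to 50 after each start, GRCm38.p6) were matched for 9 of the 10 genes, Myc being the one without a match, with 11 windows in all. CACGTG, which reads the same on both strands, was in 3 of them, those of Max, Mnt and Mxd4, and in 7.15% of all 32851 windows. These 3 stretches are shown because they are the places in the network's own promoters that carry its shared motif, in capitals (Max at chr12:76962246-76962271, minus strand; Mnt at chr11:74830781-74830826, plus strand; Mxd4 at chr5:34187904-34187949, minus strand).
Max: cccggcgcggtgagcccggtCACGTG
Mnt: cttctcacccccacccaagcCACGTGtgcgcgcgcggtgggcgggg
Mxd4: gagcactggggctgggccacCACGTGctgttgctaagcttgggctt
The E-box began 3 bases before the start of Max, 123 before that of Mnt and 219 before that of Mxd4. None of these 3 genes passed the test of genotype described below. The Mycn window held no E-box. It held the E2F motif TTTGGCGC at 183 and 168 bases before the start, a motif that 0.514% of all windows hold on either strand, and it is shown because Mycn had the largest rise of the 10 genes (chr12:12941977-12942039, minus strand, the motif in capitals).
Mycn: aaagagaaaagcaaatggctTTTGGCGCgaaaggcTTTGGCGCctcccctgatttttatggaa
The other motifs searched on both strands, TTTCCCGC for E2F and AGATAA and TGATAA for GATA factors, were in 0 of the 11 windows and in 1.07%, 11.2% and 9.05% of all windows.

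Values are normalised reads, the authors' read counts divided by 1 size factor per library, and recovered whole reads came to 38.6 to 51.3 M per library. All 10 DN3 markers were detected, among them Il2ra (55810 to 61247 normalised reads in wild type and 96837 to 110890 in the mutant), while Cd4 was at most 85.4 and Cd8a at most 55.4 in any library. Of these DN3 markers 5 rose and Rag1 fell, where 7.94% of all tested genes rose and 10.9% fell. Of 6 B-cell markers 4 were listed and 0 passed the test, with a summed level of 2356 to 2782 in wild type and 2438 to 3875 in the mutant. Nearly all of it came from Cd79b (2346 to 2750 and 2413 to 3833), while Ebf1 was at most 11.03. Of 5 erythroid markers 4 were listed, with a summed level of 7232 in wild type replicate 2 against 16.0 to 59.4 in the other libraries. On the second principal component (17.1% of the variance) wild type replicate 3 stood apart from the rest. Markers of DN1 and DN2 progenitors summed to 3750 to 4548 in wild type and 2334 to 3306 in the mutant. Among the 6, Cd44 and Bcl11a fell and the others did not pass the test. Kit was the largest part, at 2735 to 3493 in wild type and 1847 to 2642 in the mutant. Its mean and that of Spi1 were lower in the mutant. The means of Lyl1 (34.3 to 55.1) and Flt3 (21.3 to 22.5) were higher in the mutant. In such bulk samples, fewer cells of a type and less RNA per cell cannot be told apart.

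Of the 10 network genes, 3 passed the test of genotype. Myc fell, and Mycn and Mxd3 rose. For comparison, 18.8% of the 17815 tested genes passed, 7.94% upward and 10.9% downward, and the median log2 change was 0.04 over the 10 genes and 0.03 over all tested genes. The number of genes called was 3352, and 1905 without wild type replicate 2. The test was limma on log2(value + 1), mutant minus wild type, with Benjamini-Hochberg adjusted p under 0.05 taken as passing, and fold changes below are ratios of mean levels unless a log2 change is named. For 6 of the 10 genes the 3 libraries of one genotype did not overlap those of the other, as was so for 38.3% of all tested genes.

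**Figure D1:**
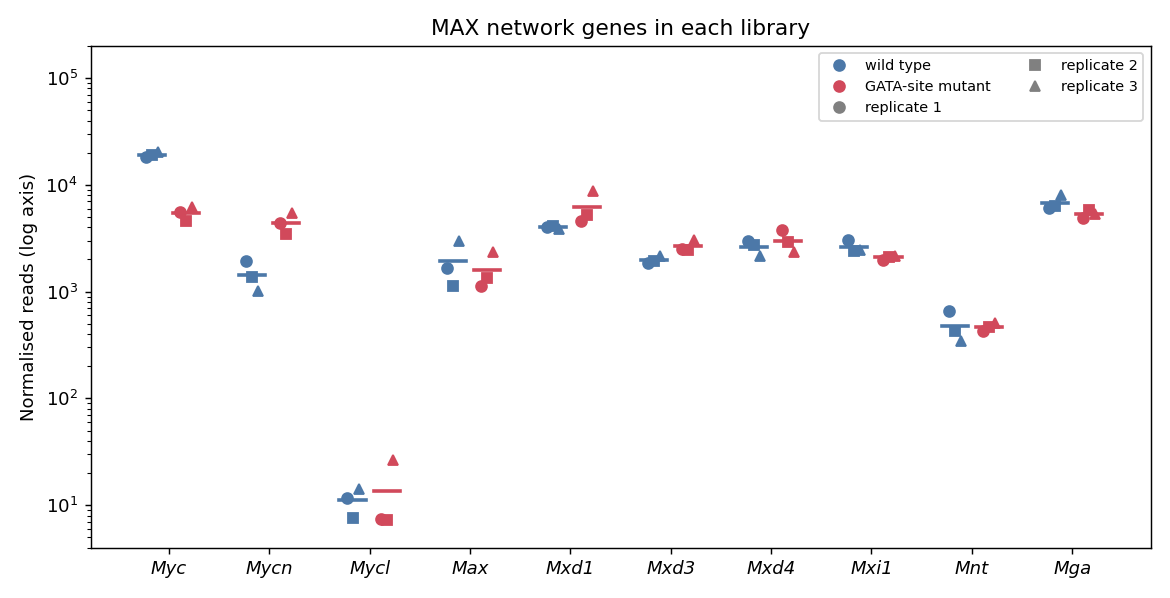
Normalised reads (log axis) of the 10 network genes in each library, wild type in blue and mutant in red, with 1 symbol per replicate number and a line at the mean of 3 libraries. Myc separates downward and Mycn upward, Mycl lies far below the others, and Max spreads widely within both genotypes.

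Among the MYC paralogues, one fell and one rose. To set genes beside each other, normalised reads were divided by the length of the union of each gene's exons, and such levels per kb are used wherever genes are compared. Myc (chromosome 15, 61985391 to 61990374, GRCm38, plus strand) stood at 6640, 7075 and 7433 normalised reads per kb in wild type and at 2047, 1698 and 2269 in the mutant. Every mutant library was far below every wild-type library. The mutant mean was 28.4% of the wild-type mean, with a log2 change of -1.82 ± 0.12 (SE, limma adjusted p = 4.22e-05).

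Mycn (chromosome 12, 12936093 to 12941914, minus strand), the paralogue best known from neural and early progenitor cells, was at 593, 412 and 311 normalised reads per kb in wild type and at 1346, 1044 and 1645 in the mutant. The lowest mutant library was above the highest wild-type library. The mean rose 3.07-fold, from 1446 ± 472 to 4432 ± 991 normalised reads (SD, n = 3 each), a log2 change of 1.64 ± 0.23 with a 95% interval of 1.13 to 2.15 (limma adjusted p = 0.00126). Without any 1 library the log2 change was between 1.42 and 1.89, and Mycn passed in each of the 18 other settings tried. Of all tested genes, 1.66% rose by as much or more. The 3 wild-type libraries differed among themselves more than those of Myc did, with a coefficient of variation of 32.7% for Mycn and 5.63% for Myc.

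Mycl (chromosome 4, 122995652 to 123002485, plus strand), the third paralogue, was close to the limit of what this depth can measure. Its recovered reads numbered 11, 8 and 16 in wild type and 7, 8 and 24 in the mutant. The groups overlapped, and mutant replicate 3 alone held most of the mutant reads. The log2 change of 0.06 ± 0.64 has a 95% interval of -1.37 to 1.50, so that a change of Mycl in either direction was not detectable. Its share of the summed level of the 3 paralogues was at most 0.167% in any library.

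The 3 paralogues were then summed per library. The sum came to 7236, 7489 and 7747 normalised reads per kb in wild type and to 3395, 2743 and 3921 in the mutant. All mutant libraries stayed below all wild-type libraries, with a mutant mean at 44.8% of the wild-type mean, against 28.4% for Myc alone. This sum was not tested, since the genes were chosen with results known.

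The Mycn rise was set beside the Myc fall on the same scale. Mean Myc fell by 5045 normalised reads per kb and mean Mycn rose by 906, so that the Mycn rise was 18.0% of the Myc fall. Taken for each mutant library against the wild-type means, the share was 18.1%, 11.3% and 25.2%. To match the fall of Myc in full, mean Mycn would have had to stand 12.5-fold above its wild-type mean, in place of the measured 3.07-fold. With reads not divided by length the share was 21.8%, and over all alternatives of length, scaling and left-out library it lay between 14.6% and 21.8%.

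The make-up of the MYC pool differed as well as its size. Mycn made up 8.20%, 5.50% and 4.01% of the summed paralogues in wild type and 39.7%, 38.1% and 42.0% in the mutant. Myc exceeded Mycn 11.2-fold, 17.2-fold and 23.9-fold per kb in wild type. In the mutant it did so 1.52-fold, 1.63-fold and 1.38-fold, a narrow range. Within the mutant, the library with the least Myc (replicate 2) also had the least Mycn, and the one with the most Myc (replicate 3) had the most Mycn. In wild type the order was opposite, the library with the most Myc (replicate 3) having the least Mycn. With 3 libraries each, these orders are a description.

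**Figure D2:**
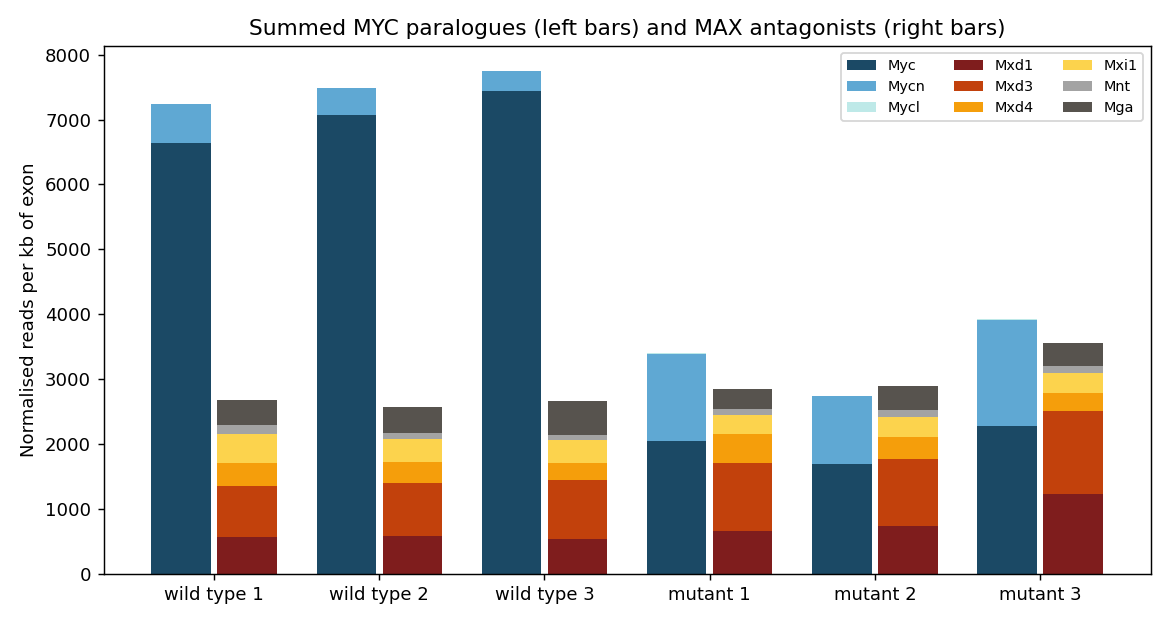
Normalised reads per kb of exon in each library, stacked for the MYC paralogues (left bar of each pair) and for the 6 MAX antagonists (right bar). The MYC bars drop from 7236 to 7747 in wild type to 2743 to 3921 in the mutant with a larger Mycn part, while the antagonist bars go from 2574 to 2680 in wild type to 2853 to 3557 in the mutant.

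Max (chromosome 12, 76937269 to 76962201, minus strand), the obligate partner of both arms, showed no change that could be told from its spread. It was at 463, 313 and 826 normalised reads per kb in wild type and at 312, 372 and 651 in the mutant. Replicate 3 was the highest of its genotype in both, and the groups overlapped. The log2 change was -0.22 ± 0.34 with a 95% interval of -0.98 to 0.54 (limma adjusted p = 0.696), and it was 0.15 without wild type replicate 3, so its sign rests on that library. Summed paralogues per kb exceeded Max 15.6-fold, 24.0-fold and 9.38-fold in wild type and 10.9-fold, 7.37-fold and 6.03-fold in the mutant, ranges that overlap.

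The antagonists did not move as a block. Of 6, Mxd3 rose, 0 fell and 5 did not pass, where 7.94% of all tested genes rose. Mxd3 (chromosome 13, 55325168 to 55329823, minus strand) was at 787, 810 and 908 normalised reads per kb in wild type and 1055, 1027 and 1274 in the mutant, without overlap. The rise was 1.34-fold (log2 change 0.42 ± 0.12, 95% interval 0.14 to 0.69, limma adjusted p = 0.0397). The call held with edgeR (adjusted p = 0.0352) and DESeq2 (0.0120) but not in 5 of the 6 fits that each omit a library (adjusted p 0.0541 to 0.125), the exception being the one that omits wild type replicate 3 (0.0446). On the opposite strand Prelid1 shares 105 exon bases with Mxd3, and the library kit does not record strand. Prelid1 went from 11737 ± 879 to 9614 ± 1062 (limma adjusted p = 0.0880), so its mean was lower in the mutant while that of Mxd3 was higher.

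Mxd1 (chromosome 6, 86647042 to 86669161, minus strand), the MXD gene best known from differentiating cells, was at 3988, 4157 and 3827 normalised reads in wild type and at 4605, 5244 and 8674 in the mutant. The groups did not overlap, but mutant replicate 3 stood well above the other mutant libraries. The mean ratio was 1.55 and the log2 change 0.57 ± 0.20 (95% interval 0.13 to 1.01), short of the threshold after adjustment (limma adjusted p = 0.0698). Without mutant replicate 3 the log2 change was 0.30, and without mutant replicate 1 it was 0.76 and passed (adjusted p = 0.0307). It also passed with DESeq2 (adjusted p = 0.00952) and with library weights (0.0493), and not with edgeR (0.0559).

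Mxd4 (chromosome 5, 34173883 to 34187720, minus strand) was at 2977, 2729 and 2160 normalised reads in wild type and 3751, 2890 and 2358 in the mutant. These ranges overlap, and the log2 change of 0.18 ± 0.18 did not pass (95% interval -0.21 to 0.58). Mxi1 (chromosome 19, 53310518 to 53375810, plus strand) was at 3030, 2382 and 2429 in wild type and 1977, 2125 and 2170 in the mutant. It was the one MXD gene with all mutant libraries below all wild-type ones, yet its log2 change of -0.31 ± 0.12 (95% interval -0.59 to -0.04) did not pass either (limma adjusted p = 0.104). Mxd4 shares 514 exon bases with the antisense gene Gm42846 and Mxi1 194 with Gm10197, so some of their reads may belong to these.

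Mnt and Mga, antagonists that many cell types express, did not pass the test. Mnt (chromosome 11, 74830920 to 74845725, plus strand) was at 653, 432 and 342 normalised reads in wild type and at 428, 469 and 505 in the mutant, all within the wild-type range. Its log2 change was 0.03 ± 0.23, with a 95% interval of -0.48 to 0.53. Mga (chromosome 2, 119897228 to 119969581, plus strand), which also carries a T-box domain, was at 6026, 6322 and 8047 in wild type and at 4941, 5780 and 5384 in the mutant. The groups did not overlap, and the log2 change of -0.33 ± 0.13 (95% interval -0.61 to -0.05) missed the threshold (limma adjusted p = 0.0943), as it did in all 18 other settings.

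**Figure D3:**
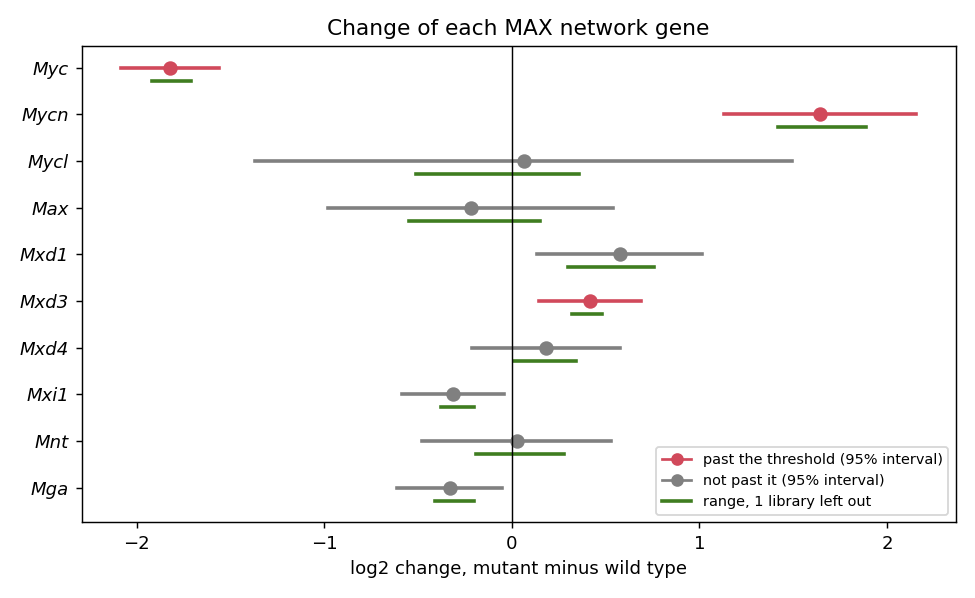
Log2 change, mutant minus wild type, of each network gene with its 95% interval (points in red passed the threshold, grey did not) and, in green, the range when any 1 library is left out. Myc (-1.82) and Mycn (1.64) keep their sign and distance from 0, while the green ranges of Mycl, Max and Mnt cross 0.

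Summed over the 6 antagonists, the level came to 2680, 2574 and 2658 normalised reads per kb in wild type and 2853, 2898 and 3557 in the mutant. On this scale the lowest mutant library was above the highest wild-type one, and the mean was 118% of wild type. Mxd1 and Mxd3 added 309 and 284 normalised reads per kb to the mean, while the 6 together added 465, since Mxi1 and Mga went the other way. With 1 library left out the mutant mean was between 109% and 122% of wild type, the lowest without mutant replicate 3. With no length correction it was 107% and the groups overlapped, so the separation depends on the gene lengths used. Mxd3 was the largest single part of the antagonist sum in all 6 libraries, with 29.4% to 34.2% in wild type and 35.4% to 37.0% in the mutant.

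The lower MYC sum and the higher antagonist sum per kb both enter the ratio of the 2 sums. This ratio was 2.70, 2.91 and 2.91 in wild type and 1.19, 0.946 and 1.10 in the mutant, with means of 2.84 ± 0.12 and 1.08 ± 0.12 (SD, n = 3 each). In wild type every library held far more MYC than antagonist RNA per kb, and in the mutant the sums were about level. The higher means of Mxd1 and Mxd3 lowered this ratio, as the fall of Myc did, while the rise of Mycn raised it. The point at which the ratio reads 1 depends on the gene lengths used. With the longest coding transcript of each gene in place of the exon union, it was 2.11 ± 0.09 in wild type and 0.797 ± 0.084 in the mutant, and the mutant ratio was 37.7% of the wild-type one in place of 38.0%. With no length correction it was 44.8%.

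The order of levels per kb also changed. In wild type Myc (mean 7049) was followed by Mxd3 (835) and Mxd1 (564), then by Max (534), Mga (443), Mycn (439), Mxi1 (383) and Mxd4 (309), whose neighbours in this order overlap from Mxd1 onward. Mnt (103) and Mycl (2.77) came last, each apart from its neighbours. In the mutant Myc (2005) still ranked first, but Mycn (1345) had moved to the next place, with a range overlapping that of Mxd3 (1118), which overlapped that of Mxd1 (873). The lowest Myc library of the mutant, at 1698, was just above the highest Mycn library, at 1645. With the longest coding transcript, Mxd3 (mean 1997) stood above Mycn (1657) in the mutant, so the order of these 2 is set by the length used.

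Genes that work with the network were read from the same fit, by lists of which some members were picked with earlier results of these data known. The MLX arm list held the genes of MLX and its partner MLXIP (MondoA), which bind similar E-boxes in response to glucose. Txnip, Arrdc4, Usf1 and Usf2 were tested with them, so the list is wider than that pair. Of these 6 tested genes 1 rose and 0 fell (median log2 change 0.22), where 7.94% of all tested genes rose. That gene was Txnip, a MondoA target that limits glucose uptake, from 6014 ± 798 to 9693 ± 1561 normalised reads (log2 change 0.68 ± 0.14, limma adjusted p = 0.00716). Mlx (0.15 ± 0.11) and Mlxip (0.02 ± 0.11) did not pass.

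Of 13 MYC coactivator genes 4 fell and 0 rose, with a median of -0.20, where 10.9% of all tested genes fell. Ruvbl1 and Ruvbl2, the paired helicases of the TIP60 and INO80 complexes, went from 9442 ± 1043 to 5688 ± 379 and from 8074 ± 685 to 4317 ± 221 (log2 changes -0.73 ± 0.11 and -0.90 ± 0.10). Wdr5, a chromatin adaptor that binds MYC, changed by -0.59 ± 0.10 and the acetyltransferase gene Kat2a by -0.39 ± 0.10, while the scaffold gene Trrap (0.32 ± 0.11, limma adjusted p = 0.0659) and the elongation kinase gene Cdk9 (-0.25 ± 0.10) did not pass.

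On the repressor side, 3 of 10 genes of the SIN3 and histone deacetylase complex fell and 0 rose (median -0.12), where 10.9% of all tested genes fell. They were Rbbp7 (-0.48 ± 0.10), Hdac2 (-0.36 ± 0.11) and Sap18 (-0.31 ± 0.10), and the scaffold genes Sin3a (-0.12 ± 0.11) and Sin3b (0.13 ± 0.11) did not pass. With edgeR, with all libraries set to the same total, or without replicate 2 or 3 of either genotype, 1 of the 10 passed. Of 9 genes of the Polycomb complex that holds MGA, 3 fell and 0 rose (median 0.07). These were Tfdp1, the E2F dimer partner (-0.66 ± 0.11), Pcgf6, a subunit particular to this complex (-0.61 ± 0.12), and E2f6 (-0.42 ± 0.12). L3mbtl2, of the same complex, did not pass (-0.16 ± 0.10).

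Of 11 genes that set how long MYC proteins last or how active they are, 1 rose and 3 fell (median -0.19). Of all tested genes 7.94% rose and 10.9% fell. The 4 calls became 2 without wild type replicate 2, wild type replicate 3 or mutant replicate 2. The kinase gene Pim1, whose product phosphorylates MYC, rose 1.99-fold, from 745 ± 40.5 to 1480 ± 221 normalised reads (log2 change 0.98 ± 0.14, limma adjusted p = 0.00151). The deubiquitinase genes Usp36 (-0.57 ± 0.11) and Usp28 (-0.42 ± 0.13) and the F-box gene Skp2 (-0.61 ± 0.17) fell. Fbxw7, the F-box gene that directs turnover of both MYC and MYCN, changed by 0.25 ± 0.12 and did not pass (limma adjusted p = 0.172).

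The genes that MYC activates were mostly lower. Of 49 tested MYC target genes 45 fell and 0 rose, with a median of -0.88, where 10.9% of all tested genes fell. Slc19a1, Npm1, Srm and Dkc1 had the smallest p of these, with log2 changes of -1.63 ± 0.10, -1.40 ± 0.09, -1.44 ± 0.10 and -1.18 ± 0.10. Since the lists were chosen with earlier results of these data known, this count is a description. The falls were measured in the same libraries as the Mycn rise, and the part of Mycn in them was not tested. Promoter windows were matched for 45 of the 50 listed target genes, and 44 of these were tested. Among the 14 tested genes whose windows hold CACGTG, 13 fell with a median of -0.90, and among the 30 without it 27 fell with a median of -0.85. Ldha, the lactate dehydrogenase gene, and Hspd1, the mitochondrial chaperonin gene, are shown because they were the targets of smallest p with the motif before the start, chosen after their values were seen (Ldha at chr7:46845639-46845781, plus strand; Hspd1 at chr1:55088298-55088343, minus strand; E-boxes in capitals).
Ldha: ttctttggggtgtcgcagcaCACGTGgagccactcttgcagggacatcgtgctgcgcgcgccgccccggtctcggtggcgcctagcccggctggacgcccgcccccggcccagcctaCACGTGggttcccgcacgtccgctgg
Hspd1: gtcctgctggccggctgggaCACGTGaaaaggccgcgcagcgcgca
Ldha went from 81639 ± 9187 to 37027 ± 1883 normalised reads and Hspd1 from 31114 ± 3400 to 14113 ± 1517, 2.20-fold lower in both cases (log2 change -1.14 ± 0.10 and -1.14 ± 0.11).

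The MYC-MIZ1 list held genes that MYC holds down together with MIZ1, a zinc finger protein, and also Zbtb17, which encodes MIZ1. Of its 7 tested genes, Zbtb17 among them, 4 rose and 0 fell (median 0.79), where 7.94% of all tested genes rose. Cdkn2b, with means of 2.33 in wild type and 6.58 in the mutant, was not tested. The stress gene Gadd45a rose 2.05-fold, the cell cycle inhibitor genes Cdkn1a and Cdkn1b 1.77-fold and 1.82-fold, and Ndrg1 1.60-fold, with limma adjusted p from 0.00510 to 0.0273. Zbtb17 itself changed by 0.09 ± 0.11. Of 20 cell cycle genes 6 fell and 1 rose (median -0.32), where 10.9% of all tested genes fell and 7.94% rose. These 7 calls on cell cycle genes became 4 without wild type replicate 2 or without wild type replicate 3. Ccnd3, cyclin D3 of the thymocyte cycle, rose from 18371 ± 1817 to 32186 ± 2706, and Mcm3 (-0.56 ± 0.10), Tk1 (-0.55 ± 0.11) and Mcm2 (-0.52 ± 0.10) of S phase fell. Mki67 and Top2a, common markers of cycling cells, changed by -0.04 ± 0.17 and -0.04 ± 0.15 and did not pass. The part of the cell cycle in the rise of Mxd3 was not tested.

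**Figure D4:**
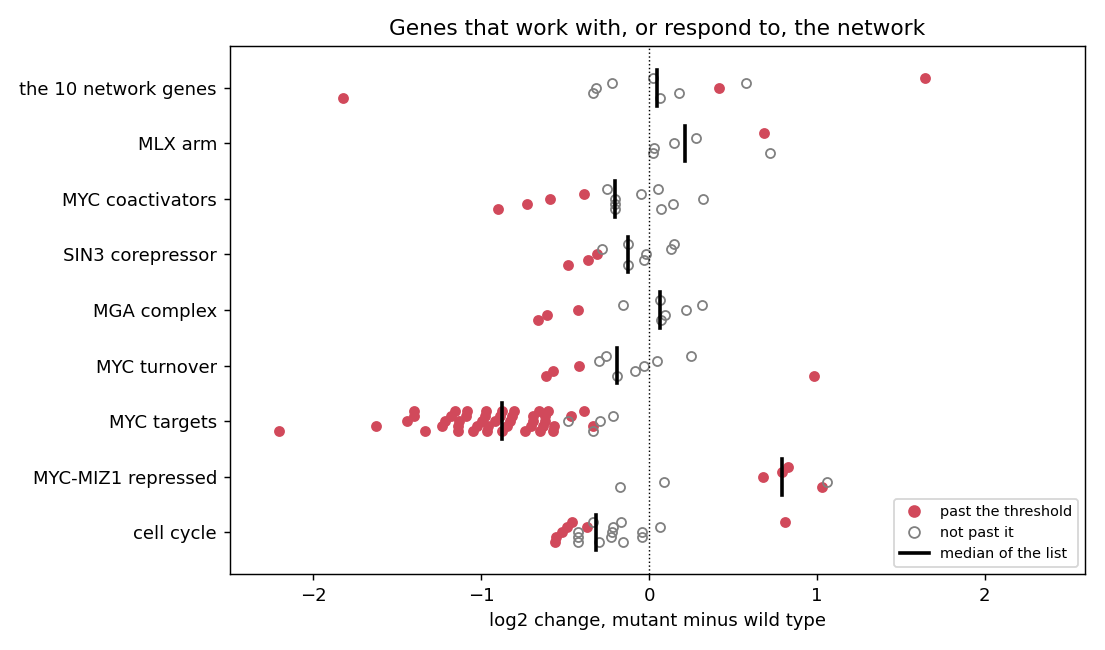
Log2 change, mutant minus wild type, of every tested gene of the 10-gene network and of 8 lists of genes that work with it or respond to it (red, past the threshold; open grey, not past it; black line, median of the list). The MYC targets lie to the left with a median of -0.88. The MYC-MIZ1 repressed list, which includes Zbtb17, lies to the right with 0.79, while the medians of the other lists lie between -0.32 and 0.22.

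The genes whose pattern was most like that of Mycn were sought by Pearson's r of log2(value + 1) over the 6 libraries, among 10648 named protein-coding genes with a mean of at least 50. They were Sox13 (r = 0.996), Id2 (0.995), Mex3b (0.995, an RNA-binding protein gene) and Ctla2a (0.994). Id2, an inhibitor of E proteins, was at 2633, 1961 and 1525 normalised reads in wild type and 4672, 3672 and 6126 in the mutant, the same order of libraries as Mycn. Sox13, a transcription factor gene of gamma-delta T cells, was at 2698, 2513 and 2179 and at 3810, 3426 and 3994. For Myc the closest were Polr1b of RNA polymerase I (0.999), the mitochondrial genes Mrps18b (0.999), Sod2 (0.999) and Timm8a1 (0.998). With 6 libraries in 2 groups, a high r follows from any clear difference between genotypes, and these values are a description.

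Markers of gamma-delta T cells moved along with Mycn. Of 5 fixed markers all were listed and 4 were tested, of which 3 rose (7.94% of all tested genes did). Besides Sox13 these were Trdc, the delta chain constant gene (9615 ± 1411 to 16793 ± 2717, log2 change 0.80 ± 0.14), and the kinase gene Blk (1043 ± 114 to 1749 ± 138, 0.75 ± 0.13), while Cd24a changed by -0.01 ± 0.10 and Zbtb16 stayed at 21.7 or below. Their summed level was 32220 to 36200 normalised reads in wild type and 38310 to 48300 in the mutant. Cd24a was the largest part, at 21658 ± 483 in wild type and 21608 ± 2585 in the mutant. Of the 5 natural killer and innate lymphoid markers Nkg7 rose (1.08 ± 0.24), with Eomes at 7.42 or below. The part of such cells in the rise of Mycn was not tested.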

How the data were processed

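The authors deposited a signal per gene, namely featureCounts reads scaled by a size factor, in 6 columns, as read from the values. Dividing each column by its smallest value above 0 gave whole reads for 100.0% of 126810 values (tolerance 0.1 reads). The tools named per the submitters' processing notes were DESeq2 1.20.0, featureCounts and STAR 2.5.3, with builds mm10 and GRCm38. Which settings featureCounts had is not given in the sources used here. Per the labels' protocols, SMART-Seq v4 and Nextera XT libraries were sequenced as read pairs.

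Symbols (21100 of 21135 genes), positions and exon lengths came from GENCODE M21 on GRCm38. The test was limma 3.58.1 in R 4.3.3 (mean-variance trend, two-sided) on log2(value + 1) over the 17815 genes whose mean reached 10, adjusted over all of them. On that scale changes of genes with few reads come out too small. Errors are SE for log2 changes and SD over 3 libraries for levels. Count tests on the recovered reads called 3283 genes with edgeR 4.0.16 and 4168 with DESeq2 1.42.0. No label says that libraries came from separate animals. The p-values therefore measure only the spread between libraries, which may be technical. No library repeated another (chi-square over degrees of freedom 26.7 to 55.3 within groups).

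Named were the 10 network genes, the 4 genes most like Myc and Mycn, up to 4 genes past the threshold with the smallest p per list, and neighbours. Others were chosen after their values were seen. The members and lists were chosen with earlier results of these data known. The fit was tested on simulated counts. Alternatives covered pseudocounts, filters, scalings, variance models, count models, gene lengths, a replicate block and leaving out each library.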

Additional observations from a re-analysis of the deposited data

How the results depend on the processing

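The limits are 3 libraries per genotype, levels of RNA only and gene lengths that do not know which isoform is used. Myc and Mycn kept their direction and passed in all 18 other settings, with log2 changes of -1.92 to -1.71 and 1.42 to 1.89. The count of network genes called was 2 to 3 when 1 library was left out. It was 2 without wild type replicate 1 or 2 or mutant replicate 2 or 3, and the 3 without mutant replicate 1 held Mxd1 in place of Mxd3. No sign changed among the called genes. Among those not called, leaving out 1 library gave -0.51 to 0.36 for Mycl, -0.55 to 0.15 for Max and -0.19 to 0.28 for Mnt, and Mnt was -0.01 with edgeR and -0.02 with DESeq2. Counts called in lists moved as follows, the cause not being tested. The MLX arm had 2 with DESeq2 and 1 to 2 with 1 library left out (2 without mutant replicate 3). The SIN3 list had 1 with equal totals or edgeR and 1 to 2 with 1 library left out (1 when replicate 2 or 3 of either genotype was omitted). The MYC turnover list had 2 to 4 (2 without wild type replicate 2, wild type replicate 3 or mutant replicate 2) and the cell cycle list 4 to 10 (4 without wild type replicates 2 or 3). Over all genes 1905 to 2788 were called with 1 library left out, the lowest without wild type replicate 2. Of the called genes 42.2% were higher in the mutant, and 52.6% with equal library totals. The ratio of MYC to antagonist sums, whose alternatives were added after seeing the data, was 44.8% of wild type with no length correction. Libraries with the same replicate number did not deviate together (r = -0.0218, -0.0664 and -0.00972). The labels used here state no pairing, and such an r cannot show whether libraries were prepared in pairs. With the replicate block 3066 genes were called, 3 of them network genes. Mycl, at 7 to 24 recovered reads, is the gene whose depth limits its result.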

Other observations

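The nearest coding genes of the network were listed beside it. Those that passed were Ddx1, Zfyve28 and Mettl16, a share of the tested neighbours close to the 18.8% of all tested genes. Ddx1, the RNA helicase gene 275 kb from Mycn, fell from 11970 ± 1222 to 7875 ± 723 normalised reads (log2 change -0.60 ± 0.11, limma adjusted p = 0.00494) while Mycn rose, and Fam49a on the other side, at 555 kb, changed by 0.06 ± 0.18. Zfyve28, 7.17 kb from Mxd4, rose from 344 ± 90.5 to 535 ± 56.5 (0.66 ± 0.20, limma adjusted p = 0.0463), and Mettl16, 2.40 kb from Mnt, fell from 4560 ± 440 to 3477 ± 53.4 (-0.39 ± 0.10, limma adjusted p = 0.0288). Rab24, 3.22 kb from Mxd3, changed by 0.33 ± 0.13 and did not pass. None of the tested coding neighbours of Mycl, Max, Mxd1, Mxi1 and Mga passed. Those of Myc, A1bg and Gsdmc, were not among the listed genes and so were not tested.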
